A study of Danio rerio with 12 samples.

Results

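Zebrafish embryos injected with a control morpholino were compared after leflunomide and after DMSO, the solvent of the drug. The comparison uses 6 of the 12 libraries of the study, 3 in leflunomide and 3 in DMSO, chosen by the labels for morpholino and treatment. All 6 came from wild-type TU embryos given 1 ng of the Standard Control oligo at the 1 to 2 cell stage, so both groups carry an injection, and no uninjected embryos were analysed here. One group was kept in 7 µM leflunomide and the other in a matching amount of DMSO from 5.3 hours after fertilisation. Embryos were raised at 28.5 °C and frozen at 10 hours, the tailbud stage, when gastrulation ends. Each library pooled 109 whole embryos, and per the series description each clutch was split between drug and solvent. The labels do not tie a replicate number to a clutch, so p-values measure the spread between these pooled samples. The other 6 libraries were of embryos with an ATG-blocking morpholino against tif1g (the gene trim33) in DMSO or leflunomide. They serve here to ask whether the drug's effect differed with the morpholino. They also share the gene filter, the scaling and the estimate of spread with the control libraries.

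Leflunomide blocks dihydroorotate dehydrogenase, the enzyme encoded by dhodh. This enzyme sits in the inner membrane of the mitochondrion, makes orotate for pyrimidine synthesis and passes its electrons to coenzyme Q. Orotate becomes UMP, from which cells make the uridine and cytidine nucleotides that RNA needs. In zebrafish embryos the drug is known for reducing neural crest derivatives, and shortage of nucleotides is known to slow transcription elongation.

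RNA was total RNA depleted of ribosomal RNA and sequenced with strand kept. Library totals ran from 27574593 to 32088082 counts over the 12 libraries. On the first principal component of the 6 control libraries, which held 35.1% of the variance, the DMSO libraries lay at -35.9 to -22.5 and the leflunomide libraries at 21.8 to 35.4. The second, with 22.3%, set replicate 1 of both treatments (-36.6 and -28.2) apart from the other libraries (11.6 to 28.3). More genes had at least 1 count in the leflunomide libraries (26815 to 27155) than in the DMSO libraries (26228 to 26420). Of 28 markers of the tailbud stage, 27 had enough counts to be tested. Among them were tbxta of the notochord, tbx16 of the paraxial mesoderm, sox3 of the neural plate and krt4 of the enveloping layer. Having enough counts does not by itself show tissue identity, and 23 of 53 genes of later tissues had enough too. Genes of differentiated tissues that form later, with fabp2 left out, summed to 58.1 to 70.2 CPM (counts scaled to a common total, here the library total) in DMSO and 62.6 to 72.4 in leflunomide. Most counts of this list were those of fabp2: in DMSO replicate 1 the list held 7139 counts with it and 1863 without it.

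Leflunomide changed the level of 4695 of the measured genes (21.9%), mostly by small amounts. Of 21400 genes tested with edgeR's quasi-likelihood test, 1899 rose (8.87%) and 2796 fell (13.1%) at an adjusted p under 0.05. With the replicate number as a block, 2899 rose (13.5%) and 3810 fell (17.8%). The median size of a called rise was 0.52 on the log2 scale and that of a called fall 0.33. At least a 2-fold change was reached by 271 genes that rose and 17 that fell. The leflunomide and DMSO libraries did not overlap for 1829 (96.3%) of the risen and 2735 (97.8%) of the fallen genes. These genes were selected by the test, which favours groups that lie apart, so the shares are no separate support. The share over all tested genes was not computed.

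The direction of change went with the level of the gene. Levels are given as CPM scaled with TMM factors, which assume that most genes do not change. The tested genes were ordered by level and cut into 5 bins of equal size. In the lowest bin (0.0736 to 0.944 CPM), 161 rose and 5 fell, and the median log2 change was 0.33. In the highest bin (46.4 to 12200 CPM), 389 rose and 1746 fell (9.09% and 40.8%), and the median was -0.14. The 3 bins between had medians of 0.18, 0.05 and -0.06, in order of level. Each replicate number gave the same order, with 0.35, 0.32 and 0.20 in the lowest bin and -0.13, -0.17 and -0.10 in the highest. TMM factors were 0.926 to 0.958 in DMSO and 1.03 to 1.05 in leflunomide. With library totals alone, the median of all genes moved from 0.02 to 0.16, and 3538 genes rose and 1220 fell, so that 74.4% of the calls were rises in place of 40.4%. Of 44 gene lists, 18 had a median of the opposite sign with library totals. The lists of cholesterol synthesis, hypoxia, interferon, aryl hydrocarbon receptor, immediate early, lateral mesoderm, epidermal ectoderm, germ cell, BMP and retinoic acid genes are among these, with medians of -0.12 to -0.02 that turned to 0.01 to 0.12, and the others are given with their values. Directions below are relative to the median gene. List counts below from the main fit, with TMM and no block, stand beside 8.87% rising and 13.1% falling among all genes. In the highest bin these shares were 9.09% and 40.8%. List counts with the replicate block stand beside 13.5% rising and 17.8% falling among all genes. Those with library totals stand beside 3538 rises and 1220 falls among 21400 genes. Shares by level were not computed for these 2 fits. For single genes described below, values with library totals are given where the call or the direction changed. The fits that left out libraries held no replicate block, so calls lost in them are those of the unblocked model. With the block and all 12 libraries, all 161 named genes called in the main fit were called.

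**Figure D1:**
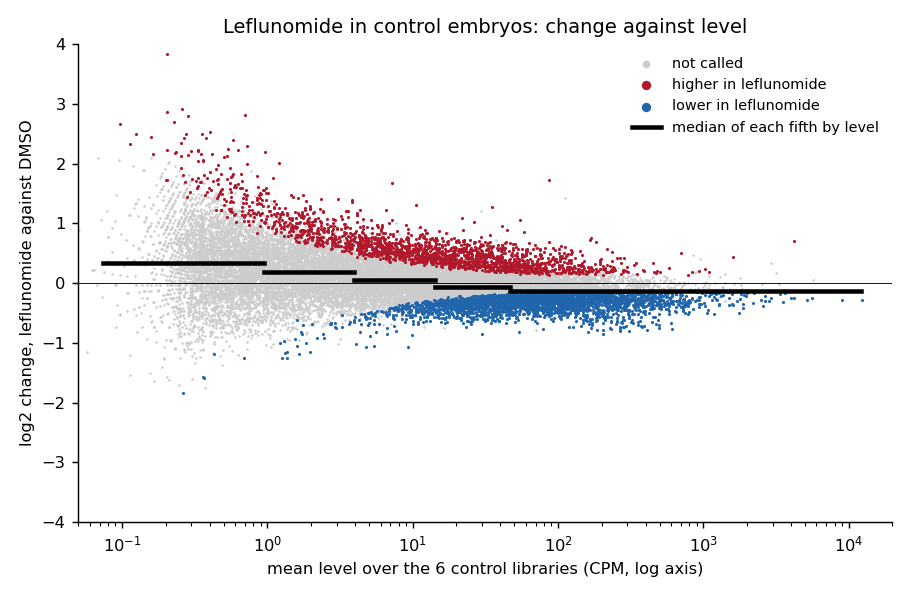
Log2 change in leflunomide against DMSO (vertical axis) for each of the 21400 tested genes, by mean level over the 6 control libraries (horizontal log axis, CPM). Red points rose and blue points fell at an adjusted p under 0.05, and black bars mark the median of each of 5 bins by level, which steps down from 0.33 to -0.14.

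The genes of the inhibited pathway responded unevenly. Pyrimidines are made from simple precursors by the proteins of cad, dhodh and umps, and only umps, which turns orotate into UMP, changed. Its level was 153, 129 and 141 CPM in the DMSO libraries 1, 2 and 3 and 99.5, 98.1 and 104 CPM in the leflunomide libraries. All leflunomide libraries lay below all DMSO libraries, and the log2 change was -0.49 ± 0.06 (SE, n = 3 per group, edgeR adjusted p = 3.73e-05). The target itself, dhodh, stood at 24.5, 21.2 and 24.5 CPM in DMSO and 23.1, 19.3 and 23.7 CPM in leflunomide. These groups overlapped (log2 change -0.09 ± 0.10, adjusted p = 0.594). The trifunctional enzyme cad, which carries out the first steps, was at 1462, 1229 and 1391 CPM in DMSO and 1384, 1229 and 1309 CPM in leflunomide (-0.06 ± 0.07, adjusted p = 0.61). The groups overlapped here too, and with library totals alone both values turned positive, 0.04 for dhodh and 0.07 for cad, again without passing the test. The transcript of trim33, at 72.9, 80.6 and 71.2 CPM in DMSO and 80.4, 85.6 and 78.6 CPM in leflunomide, did not pass the test (0.12 ± 0.06, adjusted p = 0.14). With the replicate block it did (adjusted p = 0.0491), and with library totals it was 0.26 higher (adjusted p = 0.00565).

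For downstream and salvage genes of pyrimidine metabolism the counts were near the shares of all genes. Of 33 tested, 3 rose and 6 fell, beside 8.87% and 13.1% of all genes. Their median was -0.11 (0.02 with library totals) beside 0.02 over all genes. In the highest level bin, in which ctps1, nme1 and rrm2b described next lie, 40.8% fell. CTP synthase, encoded by ctps1 (ENSDARG00000030700), turns UTP into CTP. It was at 438, 456 and 434 CPM in DMSO and 334, 333 and 339 CPM in leflunomide. The groups stood well apart (-0.40 ± 0.05, adjusted p = 3.6e-05). The nucleoside diphosphate kinase nme1 fell by 0.53 ± 0.08 (adjusted p = 0.000198) and rrm2b, a subunit of ribonucleotide reductase, by 0.43 ± 0.07 (adjusted p = 0.000271). The equilibrative nucleoside transporter gene slc29a1 (ENSDARG00000054447), whose protein carries nucleosides across the cell membrane, rose. It went from 7.68, 7.6 and 8.29 CPM in DMSO to 13.8, 13.6 and 11.7 CPM in leflunomide (0.73 ± 0.10, adjusted p = 8.07e-05), with no overlap. A second gene with that symbol, ENSDARG00000101289, is given here after its values were seen. It was far more abundant and went the other way, from 306, 306 and 261 CPM to 258, 244 and 222 CPM (adjusted p = 0.0122).

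Purine synthesis, the parallel pathway that leflunomide does not target, was lower as a group. Of 17 tested genes 12 fell and 0 rose, and the median log2 change was -0.28 (-0.15 with library totals, with 6 called lower). The bifunctional enzyme paics, which acts in the middle of the pathway, was at 459.9, 417 and 406 CPM in DMSO and 288, 323 and 319 CPM in leflunomide. All leflunomide libraries were lower (-0.46 ± 0.06, adjusted p = 7.06e-05). The GMP synthase gmps went from 330.0, 335 and 312 CPM to 252, 240.3 and 249 CPM (-0.40 ± 0.05, adjusted p = 2.89e-05), again with no overlap. Falls of similar size were called for adsl (-0.49 ± 0.07) and atic (-0.41 ± 0.06), which also make the purine ring.

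**Figure D2:**
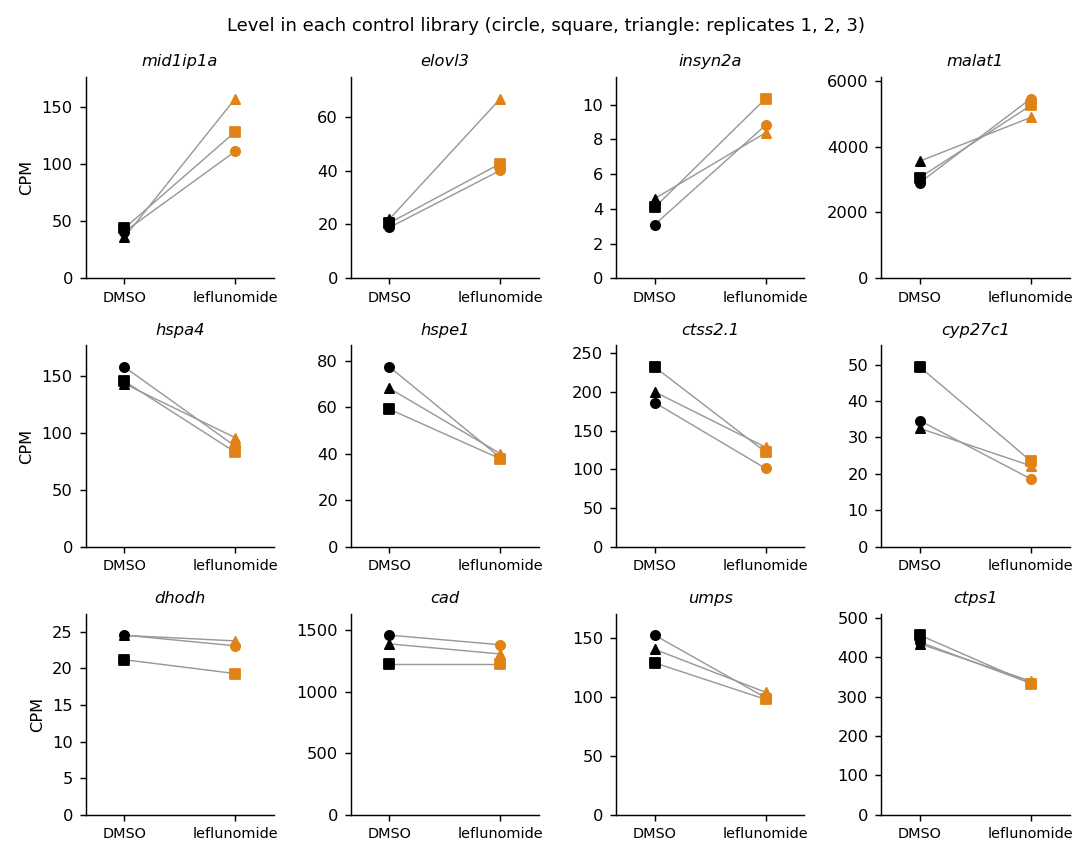
Level (CPM, linear axes from 0) of 12 genes in each control library, with lines joining libraries of the same replicate number. The top row rose, the middle row fell, and in the bottom row dhodh and cad overlap between DMSO and leflunomide while umps and ctps1 do not.

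Genes of ribosome production fell nearly as a whole. Among ribosome biogenesis and RNA polymerase I genes, 60 of 70 tested fell and 0 rose (median -0.35). Among all genes 13.1% fell, and in the highest level bin 40.8%. Among cytosolic ribosomal proteins, 75 of 83 fell and 0 rose (median -0.29). With library totals the counts were 51 and 30, and the medians -0.22 and -0.15. The assembly factor rrs1, needed for the large subunit, was at 113, 112 and 111 CPM in DMSO and 70.4, 73.6 and 73.2 CPM in leflunomide. The libraries of each group nearly coincided (-0.63 ± 0.05, adjusted p = 2.46e-06). The pre-60S factor wdr12 (-0.52 ± 0.05), the helicase ddx18 (-0.45 ± 0.05) and the box C/D snoRNP core protein nop58 (-0.44 ± 0.05) fell as well, with adjusted p-values of 1.71e-05 to 2.03e-05. In the ribosomal protein list, rpl7l1, related to rpl7, fell most in the named genes, from 189, 193 and 180.2 CPM to 117, 128 and 121 CPM (-0.62 ± 0.05, adjusted p = 2.46e-06). The groups did not overlap. The structural protein gene rpl36, named for its small p-value, went from 332, 274 and 297 CPM to 231, 224 and 226 CPM (-0.41 ± 0.07, adjusted p = 0.000285). Its fall was larger than the list's median of -0.29. DMSO replicate 1 was the highest of the 6 libraries for it. The list's median change was -0.41 between the libraries of replicate 1, and -0.21 and -0.23 in replicates 2 and 3.

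Histone genes were lower too. Among 28 tested histone genes there were 20 falls and 0 rises, and their median log2 change was -0.50 (-0.37 with library totals). The H2A gene hist1h2a3 was at 218, 190.0 and 195 CPM in DMSO and 123, 113 and 139 CPM in leflunomide. The groups were well apart (-0.68 ± 0.07, adjusted p = 2.25e-05). Histone genes are near-identical copies, so how their reads were shared out among single genes is uncertain. Of 43 DNA replication and cell cycle genes, 18 fell and 0 rose (median -0.22), a share close to the 40.8% that fell among all genes of the highest level bin, in which the 3 members named here lie. Without leflunomide replicate 2 the count was 10, with the replicate block 25, and with library totals 5 fell and 2 rose. The replication clamp pcna went from 896, 788 and 810.4 CPM to 628, 589.8 and 640.1 CPM (-0.43 ± 0.06, adjusted p = 7.19e-05). Mitotic cyclin ccnb1, also on the list of maternal transcripts, fell by 0.40 ± 0.06 (adjusted p = 0.0001), and the helicase subunit mcm3 by 0.42 ± 0.08 (adjusted p = 0.0012). In the machinery of transcription elongation and Integrator, 17 of 55 tested genes fell and 2 rose (25 and 4 with the replicate block). Its median was -0.11 (0.03 with library totals, when 9 fell and 11 rose). The Integrator subunit ints6 (-0.48 ± 0.07), the DSIF subunit supt4h1 (-0.55 ± 0.09) and the elongation factor tcea1 (-0.35 ± 0.05) were called lower.

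Nuclear and mitochondrial genes of the respiratory chain went in opposite directions. Of 88 tested nuclear-encoded subunits 63 fell and 1 rose, with a median of -0.41 (-0.28 with library totals, 39 falling). The fall spanned all complexes: 25 of 36 subunits of complex I, 3 of 4 of complex II, 8 of 9 of complex III, 11 of 19 of complex IV and 16 of 20 of complex V, with medians between -0.38 and -0.47. The complex IV subunit cox7c was at 86.4, 85.0 and 81.5 CPM in DMSO and 52.0, 52.0 and 58.9 CPM in leflunomide. No library of one group reached the other (-0.64 ± 0.06, adjusted p = 6.83e-06). The complex III subunit uqcrq went from 30.8, 29.0 and 27.3 CPM to 16.6, 16.9 and 19.0 CPM (-0.73 ± 0.09, adjusted p = 3.63e-05). The stalk subunit of ATP synthase, atp5f1c, fell by 0.56 ± 0.07 (adjusted p = 2.89e-05).

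The 13 mRNAs made inside the mitochondrion did the reverse. Of these 6 rose and 0 fell, with a median of 0.18 (0.31 with library totals, 9 rising), and each replicate number gave a median of 0.17 or 0.18. With the replicate block 10 rose, without leflunomide replicate 1 the count was 2, and without DMSO replicate 3 it was 3. The complex I subunit mt-nd4 was at 405, 402 and 380.0 CPM in DMSO and 523, 518 and 462 CPM in leflunomide. The groups did not overlap (0.34 ± 0.06, adjusted p = 0.000611). The ATP synthase subunit mt-atp6 went from 266, 267 and 248 CPM to 306, 307 and 295 CPM (0.22 ± 0.05, adjusted p = 0.00586). Coenzyme Q, which takes the electrons of the dhodh protein, is made by enzymes whose genes changed little: of 14 tested 1 fell and 0 rose, with a median of -0.05 (0.09 with library totals).

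Lists of central carbon metabolism differed in their share of falls. The TCA cycle and pyruvate entry had 12 falls and 2 rises in 18 tested genes, and a median of -0.29 (-0.15 with library totals, 7 falling). Citrate synthase, cs, fell by 0.36 ± 0.05 (adjusted p = 0.000125). Fumarase, fh, rose instead, from 63.0, 64.3 and 69.5 CPM in DMSO to 91.0, 104 and 86.1 CPM in leflunomide. All leflunomide libraries were above all DMSO libraries (0.51 ± 0.07, adjusted p = 7.85e-05). In glycolysis 6 of 25 fell and 1 rose (median -0.12, or 0.01 with library totals), beside 13.1% and 8.87% of all genes. Without any 1 of the control libraries 0 rose. In the highest level bin, in which aldoa and gapdh lie, 40.8% fell. In the bin of pgam1a and tpi1 (14.2 to 46.4 CPM) 18.7% fell. Among those that fell were aldoa (-0.46 ± 0.06), gapdh (-0.45 ± 0.06), pgam1a (-0.57 ± 0.09) and tpi1 (-0.49 ± 0.09), with adjusted p-values of 2.97e-05 to 0.000742. Of 20 cholesterol synthesis genes 3 fell and 0 rose, a share of falls near the 13.1% of all genes. Among the falls were hmgcs1 (-0.41 ± 0.09) and fdps (-0.30 ± 0.08). The call of fdps was lost with library totals (adjusted p = 0.102).

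**Figure D3:**
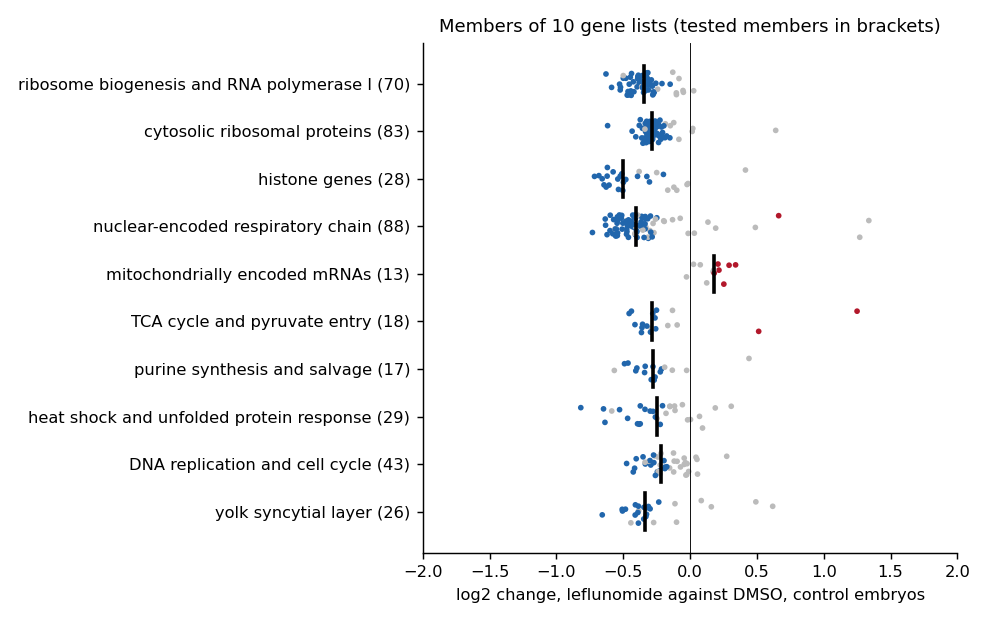
Log2 change in leflunomide against DMSO in control embryos for each tested member of 10 gene lists, with red for called rises, blue for called falls, grey for the rest and a black bar at the median. Most members of the ribosome, histone and nuclear respiratory lists sit left of 0, and mitochondrially encoded mRNAs sit mostly right of it.

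Chaperone genes were lower. Of 29 heat shock and unfolded protein genes 15 fell and 0 rose (median -0.25, or -0.11 with library totals, 9 falling). For comparison, 13.1% of all genes and 40.8% of those in the highest level bin fell. The mitochondrial chaperonin pair led: hspe1 went from 77.4, 59.2 and 68.2 CPM in DMSO to 38.3, 37.8 and 40.0 CPM in leflunomide, and hspd1 from 356, 296 and 280.1 CPM to 208, 196 and 195 CPM. Neither showed overlap between groups, with changes of -0.82 ± 0.10 (adjusted p = 8.04e-05) and -0.64 ± 0.07 (adjusted p = 1.96e-05). In the integrated stress response, which reacts to amino acid and mitochondrial stress through atf4, 6 of 27 genes fell and 0 rose. Among all genes 13.1% fell and 8.87% rose. In the highest level bin, in which the members named here lie, 40.8% fell. Its median was -0.07 (0.06 with library totals). Mitochondrial PEP carboxykinase, pck2, fell by 0.35 ± 0.05 (adjusted p = 0.000144) and the growth regulator ddit4 by 0.37 ± 0.06 (adjusted p = 0.000226). Asparagine synthetase, asns, fell by 0.31 ± 0.06 (adjusted p = 0.00148, or 0.0539 with library totals).

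Among p53 and its response genes, 6 of 22 fell and 0 rose (median -0.18, or -0.05 with library totals, 3 rising and 2 falling). Without any 1 of the leflunomide libraries, or without DMSO replicate 3, the count of falls was 3. Sestrin gene sesn3 fell by 0.41 ± 0.06 (adjusted p = 0.000239). The cell death gene bax was at -0.28 ± 0.09 (adjusted p = 0.0384), and this call was lost without any of the 6 libraries (adjusted p 0.0619 to 0.13) and with library totals (adjusted p = 0.277). In the lists of interferon and innate immune genes (18 tested) and of aryl hydrocarbon receptors and their targets (11 tested), 0 rose and 0 fell. With the replicate block, 1 gene rose and 1 fell among the interferon genes and 0 among the receptor's targets. With library totals 2 interferon genes rose and 0 fell. In the receptor list 1 then rose, the receptor gene ahr2 (0.35, adjusted p = 0.0149), and 0 fell. Leflunomide is known as a ligand of this receptor. Its main target gene cyp1a1 was near the detection limit, at 0.842, 0.669 and 0.38 CPM in DMSO and 1.44, 1.27 and 0.566 CPM in leflunomide. The groups overlapped (adjusted p = 0.2, or 0.132 with the replicate block). Within each replicate number leflunomide was higher, by 0.73, 0.86 and 0.50 on the log2 scale. In the hypoxia list 2 of 22 rose and 1 fell (2 and 4 with the replicate block). Among the rises was pfkfb3, whose call was lost without any of the 6 libraries (adjusted p 0.0712 to 0.138). Of 23 immediate early genes 4 rose and 2 fell (4 and 5 with the block, and 2 or 3 rises and 1 to 3 falls without 1 library), and both genes named zfp36l1 were called, in opposite directions: ENSDARG00000016154 rose by 0.29 ± 0.06 and ENSDARG00000021443 fell by 0.43 ± 0.09.

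The largest rise among named genes of at least moderate level was that of mid1ip1a, a gene of the family that regulates fatty acid synthesis. It was at 40.8, 43.8 and 35.9 CPM in DMSO and 111, 128 and 158 CPM in leflunomide. All leflunomide libraries were more than 2-fold above every DMSO library (1.72 ± 0.18, adjusted p = 0.00023). The fatty acid elongase elovl3 went from 18.9, 20.6 and 22.0 CPM to 40.1, 42.6 and 66.7 CPM (1.28 ± 0.29, adjusted p = 0.0142). Leflunomide replicate 3 was the highest for both. Without DMSO replicate 1 the call of elovl3 was lost (adjusted p = 0.0565), while with the replicate block and all libraries its adjusted p was 3.15e-07. The other large rises by the rule for named genes were of genes at a few CPM. They were those of the synaptic genes pclo (1.21 ± 0.21) and insyn2a (1.23 ± 0.17), the sodium channel scn8a (1.20 ± 0.26), the glutamate decarboxylase gad3 (1.40 ± 0.29), the myelin glycoprotein omg (1.15 ± 0.18), and the clustered protocadherins pcdh1g22 (1.41 ± 0.30) and pcdh1gc6 (1.25 ± 0.23). Further rises were those of the tendon factor scx (1.22 ± 0.18), the metalloprotease adamts6 (1.14 ± 0.25), tbcel (1.19 ± 0.25), gcnt7 (1.13 ± 0.23), and fosl1 of the AP-1 family (1.10 ± 0.23). Their adjusted p-values lay between 7.09e-05 and 0.00275. The monoamine transporter slc29a4 (1.17 ± 0.31, adjusted p = 0.014) lost its call without DMSO replicate 1 (0.065), DMSO replicate 2 (0.0652) or leflunomide replicate 1 (0.0562).

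Families of some of these genes were looked at after these values were seen, so their counts are a description. Of 19 tested clustered protocadherin genes, which give neurons their surface identity, 10 rose and 0 fell, with a median of 0.97 and a median level of 1.88 CPM. These genes share long stretches of sequence, and how reads were shared among them is uncertain. Of 157 ion channel genes 13 rose and 2 fell (median 0.34, median level 0.889 CPM), a share of rises close to the 8.87% of all genes. With the replicate block the counts were 30 and 6, beside 13.5% rising and 17.8% falling among all genes. Of 19 ADAMTS protease genes 4 rose and 1 fell (median 0.62, median level 0.956 CPM), or 8 and 1 with the block. The 2 lowest bins of all genes by level, for comparison, had medians of 0.33 and 0.18. One abundant transcript also rose and was picked after its values were seen: the long noncoding nuclear RNA malat1 was at 2906, 3059 and 3556 CPM in DMSO and 5451, 5245 and 4882 CPM in leflunomide. The groups did not overlap (0.71 ± 0.07, adjusted p = 2.81e-05), and it took 0.269% to 0.341% of all counts in DMSO and 0.501% to 0.561% in leflunomide.

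The largest falls were smaller than the largest rises. The Hsp70-family chaperone hspa4 was at 158, 146 and 144 CPM in DMSO and 88.5, 83.2 and 96.0 CPM in leflunomide. The groups were clearly apart (-0.74 ± 0.06, adjusted p = 2.46e-06). The cathepsin gene ctss2.1 went from 186, 232 and 200.0 CPM to 101, 122 and 128 CPM (-0.81 ± 0.18, adjusted p = 0.0101). The retinoid enzyme gene cyp27c1, which makes vitamin A2, went from 34.6, 49.4 and 32.5 CPM to 18.6, 23.5 and 22.2 CPM (-0.86 ± 0.19, adjusted p = 0.00814). DMSO replicate 2 was the highest library for both. At low levels, chordc1 (-0.81 ± 0.20), mif (-0.75 ± 0.14), prelid3a (-0.88 ± 0.21) and the opioid precursor pnocb (-0.74 ± 0.19) fell, with adjusted p-values of 0.000727 to 0.00804.

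A further 6 of the genes with the largest falls lost their call without single libraries. The endoderm factor sox32 is described with its tissue. The purine phosphorylase pnp4a (-1.07 ± 0.29, adjusted p = 0.0163) lost its call without leflunomide replicate 1 (0.058), DMSO replicate 2 (0.0652) or leflunomide replicate 2 (0.0598). The transsulfuration enzyme cth (-1.01 ± 0.27, adjusted p = 0.0104) lost it without DMSO replicate 2 (0.0757), and chchd10 (-0.82 ± 0.21, adjusted p = 0.00899) without leflunomide replicate 1 (0.0525). The cathepsin ctsk (-0.82 ± 0.23, adjusted p = 0.0152) lost it without leflunomide replicate 1 (0.0726), leflunomide replicate 2 (0.0538) or DMSO replicate 3 (0.063). The cytochrome cyp2p6 (-0.85 ± 0.28, adjusted p = 0.0356) lost it without replicate 1 of either treatment, leflunomide replicate 2 or DMSO replicate 3 (0.0625 to 0.169). The guidance gene sema3ga (-0.75 ± 0.23, adjusted p = 0.0253) lost it without the same 4 libraries (0.0653 to 0.14). Both cyp2p6 and sema3ga also lost it with library totals (0.0717 and 0.0584).

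Genes of the embryonic tissues moved less uniformly than those of ribosome production. Bulk counts of whole embryos cannot tell fewer cells of a type from less RNA per cell. In the yolk syncytial layer, the tissue that exports yolk lipid to the embryo, 17 of 26 tested genes fell and 0 rose (median -0.34, or -0.21 with library totals, 6 falling). Without leflunomide replicate 1 the count was 10. The lipid transfer protein mttp, which loads lipoproteins, was at 712, 827 and 724 CPM in DMSO and 493, 546 and 580.5 CPM in leflunomide. The groups did not overlap (-0.48 ± 0.07, adjusted p = 7.85e-05). One of the genes named afp4 (ENSDARG00000095863) fell by 0.66 ± 0.09 (adjusted p = 0.000157), the apolipoprotein apoeb by 0.33 ± 0.06 (adjusted p = 0.000354) and the nuclear receptor hnf4b by 0.39 ± 0.07 (adjusted p = 0.00034). The intestinal and yolk gene fabp2, which makes up most of the counts of the later-tissue list, was at 178, 168 and 188 CPM in DMSO and 109, 137 and 140 CPM in leflunomide. Its groups did not overlap, but it did not pass the test (adjusted p = 0.0591, or 0.000905 with the replicate block).

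The enveloping layer, the outer epithelium, had 10 of 29 genes lower and 1 higher (median -0.20, or -0.07 with library totals, when 4 fell and 3 rose), or 16 and 2 with the replicate block. The share of 10 in 29 is not above the 40.8% that fell in the highest level bin, in which krt4 lies. The keratin krt4 was at 6599, 5864 and 5905 CPM in DMSO and 5152, 5077 and 5208 CPM in leflunomide (-0.25 ± 0.05, adjusted p = 0.000818). The keratins krt8 (-0.29 ± 0.05), krt18a.1 (-0.26 ± 0.04) and krt97 (-0.36 ± 0.06) fell too. In endoderm, 6 of 13 genes fell and 0 rose (median -0.22, or -0.09 with library totals, 3 falling). Among all genes 13.1% fell. In the highest level bin, in which foxa3 lies, 40.8% fell, and in the bin of sox32 (3.97 to 14.2 CPM) 4.95%. The factor sox32, which starts endoderm fate, went from 9.86, 16.9 and 10.7 CPM to 4.38, 5.86 and 7.64 CPM (-1.07 ± 0.26, adjusted p = 0.0131). The groups did not overlap, and without leflunomide replicate 2 the adjusted p was 0.054. Its target sox17, from the list of stage markers and given after its values were seen, averaged 19.9 CPM in DMSO and 16.4 CPM in leflunomide (-0.28, adjusted p = 0.295, or 0.0298 with the replicate block). The forkhead gene foxa3 fell by 0.30 ± 0.05 (adjusted p = 0.000538), and the receptors cxcr4 and s1pr5a by 0.35 ± 0.08 each (adjusted p = 0.00264 and 0.00322, the latter 0.061 with library totals). In the prechordal plate and hatching gland list, which also holds foxa3, 3 of 11 fell and 0 rose (median -0.26). With the replicate block 5 fell. The cathepsin gene ctsla was among the falls (-0.43 ± 0.08, adjusted p = 0.00151). The prechordal plate marker gsc was not called (-0.35 ± 0.16, adjusted p = 0.129, or 0.00584 with the replicate block).

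In the axial mesoderm list a hedgehog ligand gene and targets of the pathway parted. A ligand gene with the symbol shh (ENSDARG00000038867) was at 20.2, 22.0 and 24.3 CPM in DMSO and 15.7, 16.9 and 17.1 CPM in leflunomide (-0.42 ± 0.10, adjusted p = 0.00569). The hedgehog receptor and target ptch1 was at 45.8, 39.4 and 43.3 CPM in DMSO and 59.1, 51.9 and 51.8 CPM in leflunomide (0.34 ± 0.07, adjusted p = 0.00186). The target gli1 rose by 0.28 ± 0.06 (adjusted p = 0.00164). None of the 3 showed overlap between groups. Other hedgehog ligand genes are not reported here, so the contrast with the targets is given for this shh gene only. The notochord factor noto fell from 29.3, 25.5 and 29.7 CPM to 16.6, 19.1 and 23.7 CPM (-0.51 ± 0.14, adjusted p = 0.0181). Its call was lost without DMSO replicates 1 or 3, leflunomide replicates 1 or 2 (adjusted p 0.0629 to 0.0721), and with library totals (0.0531). In all, 2 of 20 axial genes rose and 4 fell (median -0.13, or near 0 with library totals), or 4 and 8 with the replicate block. Of 22 Nodal pathway and early zygotic genes 1 rose and 6 fell (median -0.25, or -0.12 with library totals). The count of falls was 14 with the replicate block and 2 without leflunomide replicate 2. The apelin receptor gene aplnrb fell by 0.49 ± 0.10 (adjusted p = 0.00198).

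Myogenin and a neuronal marker rose. The muscle regulator myog was at 112, 119.6 and 146 CPM in DMSO and 195, 225 and 199.7 CPM in leflunomide, with no overlap (0.72 ± 0.10, adjusted p = 0.000191), while the earlier factor myf5 fell by 0.30 ± 0.07 (adjusted p = 0.00261, or 0.0628 with library totals). Of 16 early muscle genes 2 rose and 2 fell (median -0.11, or 0.03 with library totals). The neuronal RNA-binding protein gene elavl3 was at 13.7, 15.0 and 15.7 CPM in DMSO and 23.6, 22.5 and 20.4 CPM in leflunomide. All leflunomide libraries were higher (0.58 ± 0.10, adjusted p = 0.00033). The Notch ligand dld, which holds neighbouring cells back from neural fate, fell from 53.5, 42.1 and 43.5 CPM to 36.5, 32.8 and 35.1 CPM (-0.41 ± 0.08, adjusted p = 0.0013). Of 24 neurogenesis genes 1 rose and 2 fell (median 0.10), or 3 and 3 with the replicate block. Of 41 neural plate genes 3 rose and 3 fell (median 0.05), with 8 rising and 0 falling under library totals, 4 and 9 with the block, and 1 to 5 rising and 0 to 6 falling without 1 library.

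**Figure D4:**
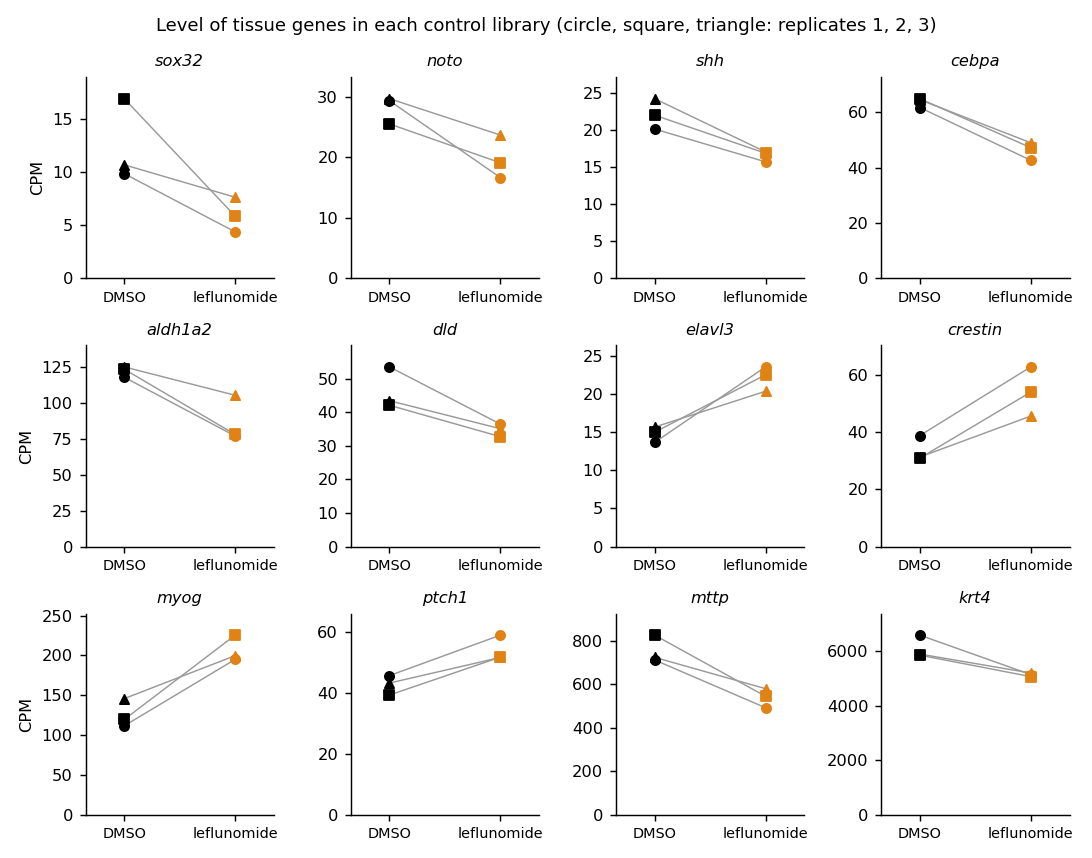
Level (CPM, linear axes from 0) of 12 tissue genes in each control library, with lines joining libraries of the same replicate number. Genes such as sox32, shh, mttp and krt4 were lower in all leflunomide libraries, and elavl3, crestin, myog and ptch1 were higher.

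Of 23 tested neural crest genes 3 rose and 1 fell, beside 8.87% and 13.1% of all genes. Their median was 0.02 (0.16 with library totals, 6 rising and 1 falling). With the replicate block 5 rose and 2 fell, and without 1 library 1 to 3 rose and 1 to 3 fell. The pan-crest transcript crestin was at 38.8, 30.9 and 31.3 CPM in DMSO and 62.8, 54.0 and 45.6 CPM in leflunomide. The groups did not overlap (0.68 ± 0.12, adjusted p = 0.00114). A gene named sox9 (ENSDARG00000043923; 0.63 ± 0.19, adjusted p = 0.0335) lost its call without leflunomide replicates 1 or 2, or DMSO replicates 2 or 3 (adjusted p 0.0548 to 0.111). The low-level pax7 (ENSDARG00000100398; 1.18 ± 0.40, adjusted p = 0.0437) lost it without any of the 6 libraries (0.0781 to 0.115). The single fall was that of id3 (-0.28 ± 0.06, adjusted p = 0.00123), which is also a BMP target.

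Counts in the other tissue and signalling lists were small, and those of the main fit stand beside 8.87% rising and 13.1% falling among all genes. Blood and vessel precursors had 1 rise and 2 falls in 19 genes (4 and 2 with the replicate block). The myeloid factor spi1 was higher (1.32 ± 0.34, adjusted p = 0.00843) at a level of 0.311 to 1.34 CPM, and cebpa fell from 61.8, 64.9 and 64.6 CPM to 42.7, 47.2 and 49.0 CPM (-0.46 ± 0.06, adjusted p = 8.05e-05). The other fall, of drl, was lost without DMSO replicates 1 or 2 or leflunomide replicates 1 or 3 (adjusted p 0.0724 to 0.19) and with library totals (0.126). Lateral mesoderm had 0 rises and 3 falls in 16 genes, but 0 falls without DMSO replicate 2 or with library totals and 1 fall without leflunomide replicates 1 or 2. The paraxial mesoderm and segmentation list had 1 rise and 3 falls in 23. With library totals it had 3 rises and 0 falls, with the block 1 and 5, and without 1 library 0 or 1 rise and 1 to 4 falls. The epidermal ectoderm list had 1 rise and 1 fall in 19 (2 and 2 with the block), and germ cells 0 and 0 in 15 (1 and 1 with the block). Maternal transcripts had 1 fall in 21 (3 with the block) and the tailbud markers 8 in 27 (13 with the block, 3 without leflunomide replicates 1 or 2 or DMSO replicate 3).

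In the retinoic acid list 0 of 22 rose and 5 fell (3 without DMSO replicate 2 or leflunomide replicates 1 or 2; with library totals 2 rose and 2 fell). Its reductase gene dhrs3, induced by retinoic acid, fell by 0.39 ± 0.06 (adjusted p = 0.00036). The synthesis enzyme aldh1a2 went from 118, 123 and 125 CPM to 76.8, 77.9 and 105 CPM, with leflunomide replicate 3 nearest to DMSO (-0.49 ± 0.13, adjusted p = 0.0167). Its call was lost without leflunomide replicate 1 (0.06), DMSO replicate 2 (0.0528) or leflunomide replicate 2 (0.0653). In the FGF list 5 of 25 rose and 2 fell (median 0.15), or 12 and 0 with library totals and 9 and 3 with the replicate block. The feedback inhibitors spred1 and spred2a were among the rises (0.31 ± 0.08 and 0.21 ± 0.06), and the target etv5b among the falls (-0.22 ± 0.05, not called with library totals, adjusted p = 0.216). The call of spred1 was lost without leflunomide replicate 2 (0.0682) or DMSO replicate 3 (0.0547), and that of spred2a without DMSO replicate 1 (0.0878) or leflunomide replicate 3 (0.0583). The count of rises in the list was 2 to 4 without 1 library. Wnt genes had 5 rises, among them the feedback inhibitor nkd1 (0.29 ± 0.06, adjusted p = 0.00113), and 7 falls, among them a receptor gene named fzd8 (ENSDARG00000038569; -0.42 ± 0.06, adjusted p = 0.000105), in 30. Without 1 library they had 1 to 5 rises and 4 to 7 falls. The BMP list had 1 rise and 5 falls in 26 (2 to 6 falls without 1 library, 8 with the replicate block), with the ventral repressor vox at -0.33 ± 0.06 (adjusted p = 0.00064). Hox genes had 3 rises and 1 fall in 13 (3 and 2 with the block), the largest that of hoxa9a (0.46 ± 0.10, adjusted p = 0.00383). In the later-tissue list, 1 of 23 tested genes was called, rho, at 0.0345 to 0.456 CPM (2 rises and 2 falls with the block). The call of rho was lost without DMSO replicates 1 or 3, or leflunomide replicates 1 or 2 (adjusted p 0.0828 to 0.108).

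In embryos with the tif1g morpholino the same drug gave fewer calls. There 41 genes rose (0.192%) and 91 fell (0.425%), or 578 (2.7%) and 940 (4.39%) with the replicate block. That comparison sets 6 other libraries against each other. It is not independent of the control result, because all 12 libraries shared the filter, the scaling and the estimate of spread. With the control libraries alone, 1646 genes rose and 2376 fell in control embryos. In those embryos trim33, the target of the translation-blocking morpholino, was at 380.2 ± 12.5 CPM in DMSO, against 74.9 ± 5.03 CPM in control DMSO (SD, n = 3), and such a morpholino need not lower its transcript. Of the genes called in control embryos, 89.2% of the rises and 92.5% of the falls had the same sign in tif1g embryos. The share with the same sign over all tested genes was not computed, so these shares are a description. Their median change went from 0.52 to 0.16 for the rises and from -0.33 to -0.14 for the falls. These genes were selected by their test in control embryos, which by itself makes their control medians larger, so the medians are a description and no test of a difference. Called the same way in both were 38 rises (92.7% of those in tif1g embryos, 2.0% of those in control embryos) and 88 falls (96.7% and 3.15%).

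Single genes differed in how much was left of the change. The rise of mid1ip1a was 1.26 ± 0.18 in tif1g embryos (adjusted p = 0.0314) and that of elavl3 0.64 ± 0.10 (adjusted p = 0.0166). The fall of hspa4 was -0.45 ± 0.06 (adjusted p = 0.0132), that of rrs1 -0.29 ± 0.05 (adjusted p = 0.0271) and that of gmps -0.32 ± 0.05 (adjusted p = 0.0166). Other genes were near 0 there, such as scx (0.03 ± 0.17), nme1 (-0.03 ± 0.08), rpl36 (-0.07 ± 0.07) and mt-nd4 (-0.01 ± 0.06). In tif1g embryos in DMSO these genes averaged 7.97, 117, 234 and 561 CPM, in that order. Control embryos averaged 2.61, 187, 301 and 396 CPM in DMSO and 6.09, 129, 227 and 501 CPM in leflunomide. So without the drug their levels in tif1g embryos already lay nearer to control leflunomide than to control DMSO. The reason was not tested. The list of cytosolic ribosomal proteins had a median of -0.01, with 1 fall and 0 rises. The yolk syncytial layer also had a median of -0.01, while ribosome biogenesis genes kept -0.17 with 8 falls and respiratory chain genes -0.14 with 0 calls.

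The test of the difference itself, the interaction of drug and morpholino, called 0 genes (0.0% of 21400) with edgeR's quasi-likelihood test. The smallest adjusted p was 0.0985, and 2560 genes had an unadjusted p under 0.05. DESeq2 called 343, but it gave an adjusted p for only 6222 genes, so its count is not over the same genes. With the replicate block edgeR called 1067 (4.99%). Of these 1067, the effect was smaller in tif1g embryos for 1022, and the signs were opposite for 291. With the block, the change differed for 67 of the 83 cytosolic ribosomal proteins, 19 of 70 ribosome biogenesis genes, 21 of 88 respiratory chain genes, 11 of 28 histone genes and 7 of the 13 mitochondrial mRNAs. Among single genes with the block, the difference was called for nme1 (adjusted p = 0.000642), scx (0.00261), hist1h2a3 (0.000222), mt-nd4 (0.00436) and malat1 (0.0334), and not for mid1ip1a (0.393), elavl3 (0.898), sox32 (0.189) or gmps (0.547).

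**Figure D5:**
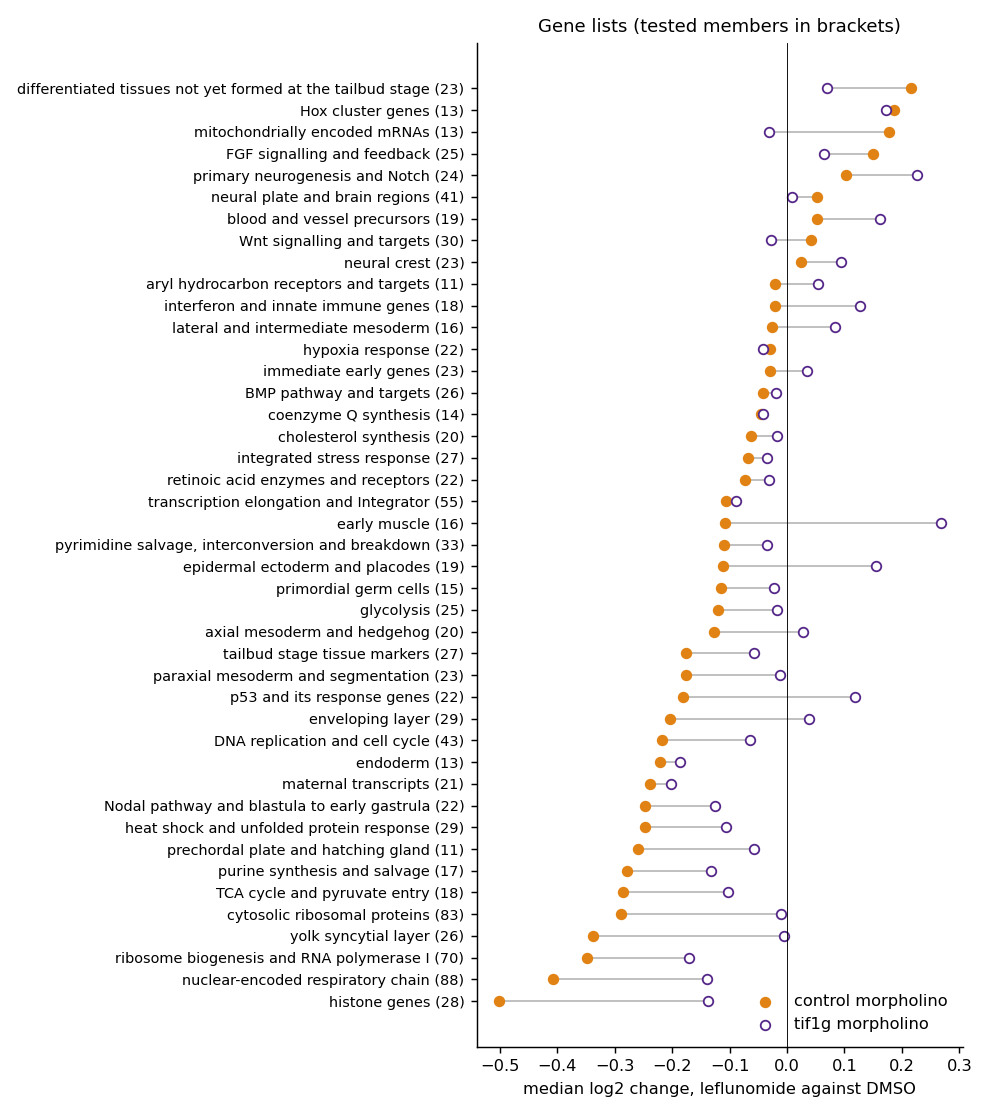
Median log2 change in leflunomide against DMSO over the tested members of each gene list with at least 10 tested genes, in control embryos (filled) and tif1g embryos (open), ordered by the control value. Lists far from 0 in control embryos, such as histones (-0.50) and the nuclear respiratory chain (-0.41), lie nearer 0 in tif1g embryos.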

How the data were processed

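Gene levels were measured by RNA sequencing of whole-embryo pools. The values deposited by the authors are raw read counts per Ensembl gene for 32520 genes, with no pooling of replicates stated. FastQC, cutadapt, TopHat2 2.0.11, Cufflinks 2.2.1, HTSeq and genome build GRCz11 are named, per the submitters' processing notes. No label gives the annotation release or whether counting used strand, so genes that overlap on opposite strands may hold each other's reads. Of the identifiers, 29201 had a symbol, and 1523 tested genes had none.

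Genes were filtered with filterByExpr in edgeR 4.0.16 (R 4.3.3), keeping 21400 out of 30339 with any count. After TMM scaling, a robust quasi-likelihood model of 4 group means took in all 12 libraries (biological coefficient of variation 0.113). Contrasts were tested by the quasi-likelihood F test of edgeR, p-values were adjusted by the Benjamini-Hochberg method across the tested genes, and genes were called at 0.05. SEs were taken from the F statistic. Between replicates of a control group, the chi-square per degree of freedom over genes with at least 20 counts was 7.64 to 15.0, so for these genes the spread between samples exceeded counting error. Counts of 21001 genes were also simulated, with 50 genes changed at each size, all at a mean log2 CPM of at least 1. The test recovered 88% of log2 changes of 1, 82% of -1, 54% of 0.5 and 42% of -0.5, with 7 false calls. All other genes were drawn unchanged and the libraries without replicate effects. The data have 4695 calls, a trend with level and paired replicate numbers, so these rates need not hold for this comparison.

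Replicate numbers pair the libraries: deviations from the group means correlated at 0.276 to 0.498 in all 18 same-number pairs, and at -0.346 to -0.0289 in the 36 pairs of different numbers. Deviations within a group sum to 0, so the negative values largely follow from the positive ones and are no separate support. This pairing comes from the data and from the division of clutches, not from a label. Blocked values are given where they change the call of a gene described or move a list's count from at least 1 by over 1.5 times.

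The named genes are dhodh and trim33, the 15 largest called rises and the 15 largest called falls with a mean log2 CPM of at least 1, the same sign in all 3 numbers and a gene name, and up to 4 tested members of each of 44 gene lists with the smallest p, 192 in all. The comparison and the lists were chosen with earlier results of these data known, so their counts are not independent evidence. Alternatives were DESeq2 1.42.0, other scalings, no filter, the control libraries alone, the replicate block, and leaving out libraries. Gene spans, promoters and sequences were not used here. Some members of the gene lists are counted but not reported by name here.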

Additional observations from a re-analysis of the deposited data

Results flagged for a closer look

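The effect of leflunomide differed between control and tif1g embryos, by the interaction tested with the replicate block, for 1067 genes (4.99% of 21400). The share of such genes by level was not computed. Without the block the same test called 0. Among lists with at least 10 tested genes, genes with such a difference made up at least 25% of the tested members in the cytosolic ribosomal proteins (67 of 83), the ribosome biogenesis list (19 of 70), histone genes (11 of 28), the yolk syncytial layer (9 of 26), the enveloping layer (8 of 29), the TCA cycle and pyruvate entry (8 of 18), mitochondrially encoded mRNAs (7 of 13), and p53 and its response genes (6 of 22). The respiratory chain list (21 of 88) was just under this cut.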

How the results depend on the processing

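The count of genes that rose in leflunomide was 1899 and was 2899 with the replicate block, 2924 with the block in the control libraries alone, 3538 with library totals, and 720 to 1676 when 1 control library or all libraries of 1 replicate number were left out. Leaving out leflunomide replicate 1 gave 1247 and leflunomide replicate 2 gave 1161. The count of genes that fell was 2796 and was 1220 with library totals and 1394 to 2541 with such libraries left out. DESeq2 (1908 and 3140), its size factors in edgeR (1809 and 2854), no filter (1680 and 2651) and the control libraries alone (1646 and 2376) moved neither count by over 1.5 times. The interaction had 0 calls, and 1067 with the replicate block, 3 with library totals, 1 without the filter, and 0 in every fit with libraries left out. With DESeq2 it had 343 among the 6222 genes given an adjusted p. With library totals, the values of dhodh (0.0447) and cad (0.0747) turned positive, with 18 of 44 list medians of opposite sign. Of 161 named genes called, all 161 were called with the replicate block, 33 lost the call with library totals and 40 without at least 1 of the 6 control libraries. Without a whole replicate number each group holds 2 libraries. Low counts limit the lowest genes: in the lowest of 5 bins by level, 161 rises and 5 falls were called among 4280 genes. The causes of these shifts were not tested.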
